A study of Sus scrofa with 61 samples.

Results

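The myosin heavy chain is the motor protein of the thick filament, and it splits ATP to pull on actin when a muscle fibre contracts. Mammalian skeletal muscle uses several heavy chain genes, and the isoform a fibre carries largely sets how fast it shortens and how economically it works. During fetal life an embryonic chain (MYH3) and a perinatal chain (MYH8) are gradually replaced by the adult chains: MYH7 in slow, oxidative type I fibres, MYH2 in type IIa fibres, MYH1 in type IIx fibres and MYH4 in the fastest, glycolytic type IIb fibres.

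The 6 genes MYH1, MYH2, MYH3, MYH4, MYH7 and MYH8 were followed, out of 12425 genes with a named probe, in longissimus muscle (the loin muscle) of pig fetuses in late gestation. They were found by name: a probe was taken when its gene name in the scanner files, or the symbol that the study's additional gene lists give for it, was one of the 6. This gave 33 of the 60305 probes of the array that are not controls, namely 8 for MYH1, 5 for MYH2, 1 for MYH3, 10 for MYH4 and 9 for MYH7. No probe carried the name MYH8, so the perinatal chain was not analysed here. A further probe that the study's list names MYHC, with no isoform number, was read beside them but was not counted among the 33.

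RNA of 61 male fetuses was hybridised, 1 array per fetus, in 8 groups made of 4 genotypes and 2 gestational ages. The pure breeds were Large White (LW), a breed selected for lean growth, and Meishan (MS), a Chinese breed. LWMS fetuses had an MS sow and an LW boar, and MSLW fetuses had an LW sow and an MS boar. At day 90 each genotype had 8 fetuses, and at day 110 there were 9 LW, 7 MS, 8 LWMS and 5 MSLW fetuses. The sows were inseminated with semen of both breeds together, so a litter could hold purebred and crossbred fetuses. All fetuses were delivered by caesarean. The labels do not give the sow of each fetus, so littermates were counted as separate fetuses, and the p-values measure the spread between fetuses only. The comparisons ask how the muscle changes over the last weeks before birth, and whether it does so differently in breeds whose piglets differ in maturity at birth.

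All 33 probes were kept by the filter on dim probes, against 42436 kept probes on the whole array. Each gave a signal well above background on all 61 arrays, and no spot of these probes was saturated. Values below are log2 of the quantile-normalised intensity, so a difference of 1 is a doubling of signal. The brightness of a probe depends on its letters as well as on its target, so values are compared between fetuses. Where probes are ranked by brightness, the rank is not read as the level of a gene. The arrays had between 34347 and 45684 spots well above background (median 41983), and the array with the fewest was an MS fetus of day 90. Of 8 skeletal fibre markers, 6 rose with age in each genotype, where 20.8% to 28.6% of all kept probes rose. The log2 of the summed signal of the 8 ran from 19.99 to 20.45 over the day 90 fetuses and from 20.42 to 20.83 over those of day 110. These values describe the markers and are no test of which tissue was sampled. In whole muscle, fewer fibres of a type and less RNA per fibre cannot be told apart.

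The probes are 60-base sequences, and several of them overlap. Pairs that were 94.7% or more identical where they aligned carried the same gene name. The exception was A_72_P440201 (MYH2) with A_72_P303294 (named MYH4), described below. Other pairs with different names were at most 83.0% identical over 30 columns or more. The sequences below, copied from the scanner files, are shown because probes named MYH1 or MYH4 gave unlike results. In the first 3, all named MYH4, capitals mark the longest run that they share, 29 bases.

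MYH4 probe A_72_P615705: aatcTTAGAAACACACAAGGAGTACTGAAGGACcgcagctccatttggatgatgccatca

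MYH4 probe A_72_P687460: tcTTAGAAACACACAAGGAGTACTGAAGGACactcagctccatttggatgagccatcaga

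MYH4 probe A_72_P599573: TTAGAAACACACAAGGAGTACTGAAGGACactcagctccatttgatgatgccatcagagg

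In the next 3, capitals mark the bases of the MYH4 probes that differ from the MYH1 probe, or face a gap, where they align with it. Each MYH4 probe was aligned with the MYH1 probe separately, with 2 gapped columns. The stretch that both MYH4 probes share is therefore marked differently in the 2 lines.

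MYH1 probe A_72_P619550: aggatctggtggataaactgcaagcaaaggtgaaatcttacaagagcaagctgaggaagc

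MYH4 probe A_72_P638603: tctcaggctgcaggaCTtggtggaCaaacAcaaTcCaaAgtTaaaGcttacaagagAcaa

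MYH4 probe A_72_P441939: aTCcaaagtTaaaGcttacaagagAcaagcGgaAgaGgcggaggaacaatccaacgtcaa

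Probe A_72_P638603 aligned with the MYH1 probe over 50 columns, of which 39 were identical (78.0%), and A_72_P441939 over 40, of which 31 were identical (77.5%). The last set, without capitals, holds an MYH4 probe from another stretch whose exact letters the array carries a second time under the name O14581, the MYH2 and MYH7 probes with the widest age change of their genes, and the MYHC probe.

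MYH4 probe A_72_P675825: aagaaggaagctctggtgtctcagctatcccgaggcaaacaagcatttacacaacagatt

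MYH2 probe CUST_404_PI427286967: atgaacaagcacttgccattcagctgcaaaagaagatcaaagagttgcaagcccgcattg

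MYH7 probe A_72_P529715: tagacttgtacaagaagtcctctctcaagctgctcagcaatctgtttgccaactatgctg

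MYHC probe A_72_P414973: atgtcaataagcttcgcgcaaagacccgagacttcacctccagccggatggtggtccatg

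Between day 90 and day 110 nearly every heavy chain probe changed. In LW fetuses 29 of the 33 rose and 3 fell (limma, Benjamini-Hochberg adjusted p under 1% over all kept probes), where 21.8% of all kept probes rose and 23.5% fell. In MS fetuses 24 rose and 7 fell, against 28.6% and 28.1% of all kept probes. In LWMS fetuses 22 rose and 7 fell (25.1% and 25.7% of all), and in MSLW fetuses 23 rose and 3 fell (20.8% and 23.8% of all). The median age change of the 33 was 1.13 in LW and 0.80 in MS fetuses, and 0.70 in LWMS and 0.46 in MSLW fetuses, where the median of all kept probes lay between 0.02 and 0.04. Probes of 1 gene share their target, so these counts do not stand for as many independent measurements. The moderated F test over the 8 groups called 27 of the 33 at a Bonferroni p under 1%, against 44.9% of all kept probes.

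**Figure D1:**
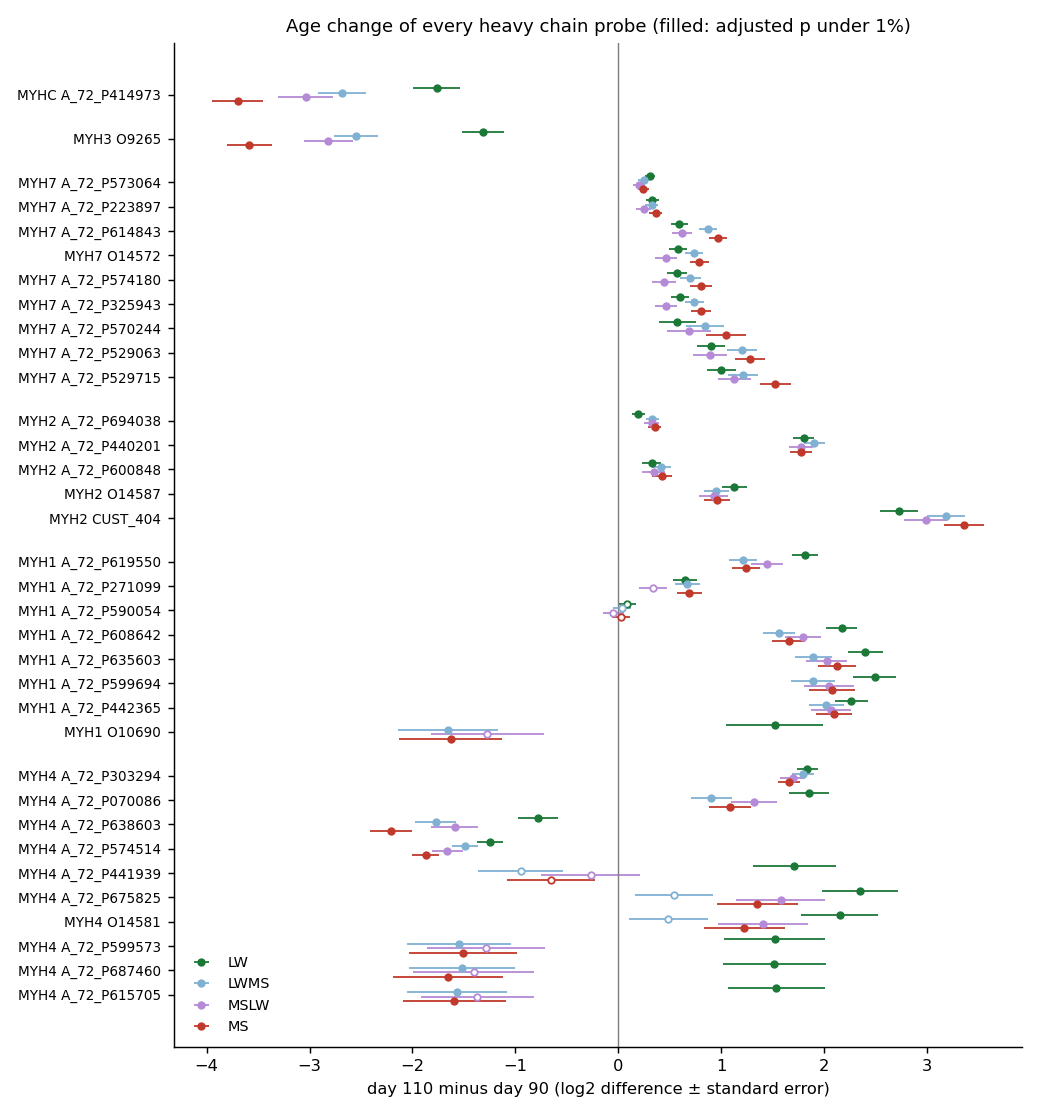
Age change (day 110 minus day 90, log2 difference ± standard error) of each heavy chain probe in the 4 genotypes, 1 line of points per probe and 1 colour per genotype; filled points have an adjusted p under 1%. MYH3 and MYHC lie at the far left with LW nearest to 0 (MYH3: -1.31 in LW and -3.59 in MS), MYH7 and MYH2 lie to the right in every genotype, and several MYH4 probes lie right of 0 in LW and left of it in the other genotypes.

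MYH3, the embryonic chain, fell in every genotype, and it fell least in LW. Its single probe, O9265, was 17.72 at the lowest, 17.91 at the median and 18.06 at the highest in LW fetuses of day 90, and 14.90, 16.84 and 17.25 in LW fetuses of day 110. In MS fetuses the same 3 values were 16.96, 17.34 and 17.47 at day 90 and 13.13, 13.76 and 14.32 at day 110. No MS fetus of day 110 reached the lowest LW fetus of that age, and in each breed every fetus of day 110 lay under every fetus of day 90 of the same breed.

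The fall was 2.48-fold in LW (log2 difference -1.31 ± 0.21 SE, adjusted p = 2.00e-07) and 12.0-fold in MS (-3.59 ± 0.22 SE, adjusted p = 2.68e-21). The difference of these age changes was -2.27 ± 0.30 SE (adjusted p = 4.34e-07). A lower age change in MS than in LW was called for 7 of the 33 heavy chain probes and a higher one for none, against 3.39% and 2.56% of all kept probes, and MYH3 was 1 of the 7. With the crosses left out of the fit, 2 of the 33 were called, MYH3 and the MYH4 probe A_72_P638603. MYH3 was 7.32-fold lower in MS fetuses of day 110 than in LW fetuses of that age (adjusted p = 1.59e-16), while at day 90 the difference of -0.60 ± 0.21 SE missed the threshold (adjusted p = 0.036). On the 6 slides that held fetuses of both breeds at day 110, MS was lower on all 6, by -3.83 to -0.82.

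The crosses lay between the breeds at day 110. LWMS fetuses ran from 17.08 over 17.36 to 17.70 at day 90 and from 14.29 over 14.84 to 15.27 at day 110. MSLW fetuses ran from 17.41 over 17.76 to 17.87 at day 90 and from 14.16 over 14.56 to 15.89 at day 110. By mean level the order at day 110 was MS, LWMS, MSLW and LW from the lowest, and at day 90 it was the same, and each group's range overlapped that of its neighbour in the order. The age change was -2.55 ± 0.21 SE in LWMS and -2.82 ± 0.24 SE in MSLW. Both parental terms of the model with age and the genotypes of dam and sire reached the threshold: an MS dam went with a further fall of -1.03 ± 0.22 SE from day 90 to day 110 (adjusted p = 0.00154), and an MS sire with one of -1.26 ± 0.22 SE (adjusted p = 0.000363). Fetuses of 1 sow share their dam, which this fit leaves out.

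The MYHC probe moved in parallel. It fell by 1.77 in LW, by 3.70 in MS, by 2.69 in LWMS and by 3.04 in MSLW on the log2 scale, all past the threshold, and the MS change differed from the LW change by -1.93 ± 0.34 SE (adjusted p = 6.13e-05). At day 110 the LW fetuses of this probe ran from 14.26 to 16.52 and the MS fetuses from 12.40 to 13.91, without overlap. Its paternal term passed (-1.14, adjusted p = 0.00535) and its maternal term did not (-0.80, adjusted p = 0.0274). Once each group's mean was subtracted, MYH3 and MYHC still varied together over the 61 fetuses, with a Pearson correlation of 0.947. Which gene the MYHC probe reads was not settled by the files.

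**Figure D2:**
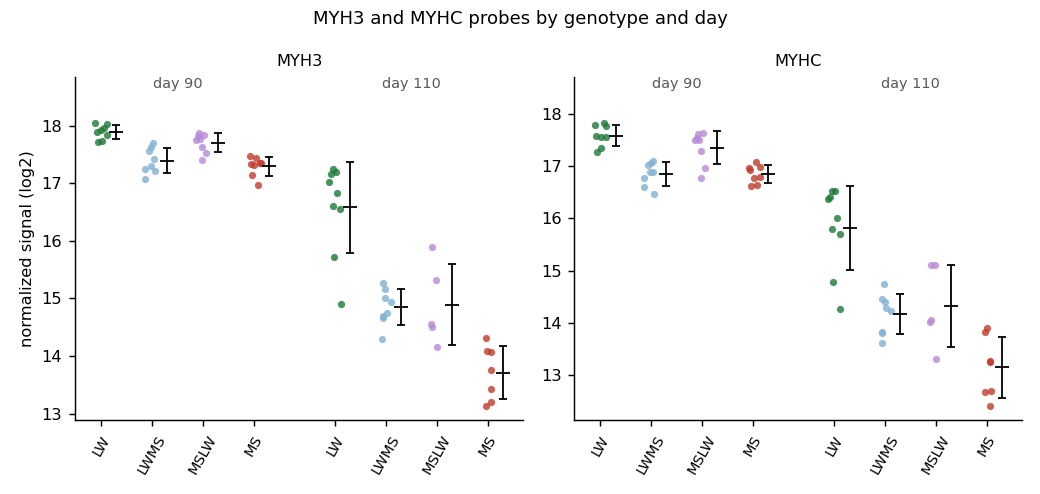
Normalised log2 signal of the MYH3 probe and of the MYHC probe in each fetus (points), by genotype and gestational day, with the group mean ± SD in black. All groups fall from day 90 to day 110; at day 110 the LW fetuses (MYH3 from 14.90 to 17.25) stay above the MS fetuses (13.13 to 14.32).

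Among named genes outside the list, those whose values followed MYH3 most closely over the 61 arrays were MYHC (r = 0.993), DLK1 (0.970), a membrane protein of immature cells, and NES (0.968), the intermediate filament nestin of immature fibres. With group means subtracted they were MYHC (0.947), NES (0.690) and TNNI3 (0.676), the cardiac form of troponin I. These correlations are a description over arrays that share age and genotype.

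Markers of fibroblasts and connective tissue moved in the same direction as MYH3. All 5 of them (COL1A1, COL3A1, DCN, LUM and PDGFRA) fell with age in every genotype, where 23.5% to 28.1% of all kept probes fell. In 4 of the 5 the fall was larger in MS than in LW past the threshold, where 3.39% of all had a lower age change in MS. The log2 of their summed signal lay at 18.19 to 18.53 (LW) and 18.38 to 18.49 (MS) at day 90, and at 16.84 to 17.53 (LW) and 16.20 to 16.58 (MS) at day 110. LWMS fetuses ran from 18.27 to 18.53 and then from 16.49 to 17.32, and MSLW fetuses from 18.29 to 18.58 and then from 16.70 to 17.37. Their part in the MYH3 result was not tested.

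MYH7, the slow chain, rose in every genotype with all of its 9 probes. The rises ran from 0.31 to 1.00 in LW (median 0.58), from 0.24 to 1.53 in MS (0.80), from 0.25 to 1.21 in LWMS (0.74) and from 0.21 to 1.13 in MSLW (0.46). The brightest of the 9, A_72_P573064, showed the smallest rise and the dimmest, A_72_P529715, the largest. The bright probe was itself brighter than all but 0.356% of the kept probes, and 99.6% of the kept probes had a within-group SD as large as its own or larger.

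In A_72_P573064 the lowest, median and highest day 90 LW fetus read 17.31, 17.69 and 17.73, with 17.72, 17.96 and 18.09 among LW fetuses of day 110. The MS fetuses were 17.65, 17.74 and 17.82 at day 90 and 17.95, 17.97 and 18.06 at day 110. LW gained 0.31 ± 0.05 SE and MS 0.24 ± 0.05 SE, and the breeds did not differ past the threshold at either age (adjusted p = 0.093 at day 90 and 0.431 at day 110). LWMS ran from 17.54 over 17.59 to 17.74 and then from 17.80 over 17.87 to 17.97, and MSLW from 17.54 over 17.72 to 17.87 and then from 17.80 over 17.91 to 17.97. One MSLW array of day 90 had no value for this probe, and the fit left it out.

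The dim probe A_72_P529715 separated the breeds at day 110. The lowest, median and highest LW fetus read 9.76, 10.35 and 10.47 at day 90, then 10.62, 11.22 and 11.60 at day 110. In MS these were 9.83, 10.34 and 10.91 at day 90 and 11.65, 11.89 and 12.22 at day 110. Every MS fetus of day 110 thus lay above every LW fetus of that age, and both lay above LW fetuses of day 90. The age change was 1.00 ± 0.14 SE in LW (2.01-fold) and 1.53 ± 0.15 SE in MS (2.88-fold), and the difference of the age changes missed the threshold (0.52 ± 0.20 SE, adjusted p = 0.0751). At day 110 the MS level was higher by 0.69 ± 0.14 SE (adjusted p = 0.000119), on 6 of 6 slides. The crosses were 9.91, 10.09 and 10.65 (LWMS) and 9.85, 10.58 and 10.92 (MSLW) at day 90. At day 110 they were 11.19, 11.43 and 11.61 and 11.42, 11.57 and 11.70, within the span of the breeds. From the lowest mean, the day 110 order was LW, LWMS, MSLW and MS, with overlapping ranges between neighbours.

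Over the 9 MYH7 probes, MS exceeded LW past the threshold in 5 at day 110 and in none at day 90, where 1 probe had an unadjusted p under 0.05 by limma. Of all kept probes, 13.7% were higher in MS at day 110 and 6.23% at day 90. The median difference was 0.33 at day 110 and 0.09 at day 90. No MYH7 probe had an age change that differed between the breeds past the threshold, and 2 had an unadjusted p under 0.05. Within groups the 9 probes correlated with each other from 0.17 to 0.95 (median 0.70). The named genes nearest to A_72_P573064 were MYL6B (r = 0.892), a slow myosin light chain, TNNT1 (0.886), slow troponin T, and TPM3 (0.867), slow tropomyosin. The same 3 genes led with group means subtracted (TPM3 0.589, TNNT1 0.576, then MYL6B). A probe that lists the MYH7 transcript without carrying its name rose by 0.40 in LW and 0.41 in MS, and by 0.33 and 0.29 in the LWMS and MSLW crosses.

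MYH2, the chain of type IIa fibres, rose in every genotype with all of its 5 probes, and it stood higher in MS than in LW at both ages. The rise of the 5 probes ran from 0.19 to 2.73 in LW, from 0.35 to 3.36 in MS, from 0.33 to 3.18 in LWMS and from 0.33 to 2.99 in MSLW. At day 90 MS exceeded LW in 4 of the 5 (differences from 0.36 to 0.67, and 0.21 in A_72_P694038, which was not called), and at day 110 in 5 of 5 (0.37 to 1.31). Over the 33 heavy chain probes MS exceeded LW in 17 at day 90, with none lower, against 6.23% higher and 6.61% lower of all kept probes. At day 110 it exceeded LW in 10 and was lower in 2, against 13.7% and 15.2%. With each array scaled to its 75th percentile in place of quantile normalisation, MS was higher in 18 and lower in 1 at day 110.

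In the MYH2 probe with the widest change, CUST_404_PI427286967, LW fetuses were 9.96, 10.43 and 11.07 (lowest, median, highest) at day 90 and 12.83, 12.92 and 14.12 at day 110. MS fetuses were 10.59, 11.23 and 11.44 at day 90 and 14.01, 14.50 and 15.13 at day 110. In each breed the ages were apart, and at day 110 only the top of the LW range reached into the MS range. The rise was 6.63-fold in LW (2.73 ± 0.18 SE, adjusted p = 1.49e-19) and 10.3-fold in MS (3.36 ± 0.19 SE, adjusted p = 1.99e-22). MS exceeded LW by 0.67 ± 0.19 SE at day 90 (adjusted p = 0.00569) and by 1.31 ± 0.19 SE at day 110 (adjusted p = 1.06e-07), on 8 of 8 slides and 6 of 6 slides. The difference between the age changes, 0.63 ± 0.26 SE, missed the threshold (adjusted p = 0.1).

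LWMS fetuses ran from 10.24 over 11.02 to 11.70 at day 90 and from 13.82 over 14.08 to 14.51 at day 110 in this probe, and MSLW fetuses from 10.52 over 11.23 to 11.63 and from 13.81 over 14.18 to 14.34. By mean level both ages had the order LW, LWMS, MSLW and MS, and neighbours within an age overlapped. The brightest MYH2 probe, A_72_P694038, gained 0.19 ± 0.06 SE in LW and 0.35 ± 0.07 SE in MS. In it LW fetuses ran from 16.89 over 17.08 to 17.23 at day 90 and from 17.11 over 17.24 to 17.44 at day 110, and MS fetuses from 17.14 over 17.29 to 17.36 and from 17.38 over 17.60 to 17.97. The ages overlapped in LW and did not in MS. The named genes most like this probe were C15ORF44 (r = 0.868), LACTB2 (0.857) and PRKG1 (0.856), and with group means subtracted PTPRB (0.607), ARHGAP21 (0.583) and JMJD1C (0.576).

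**Figure D3:**
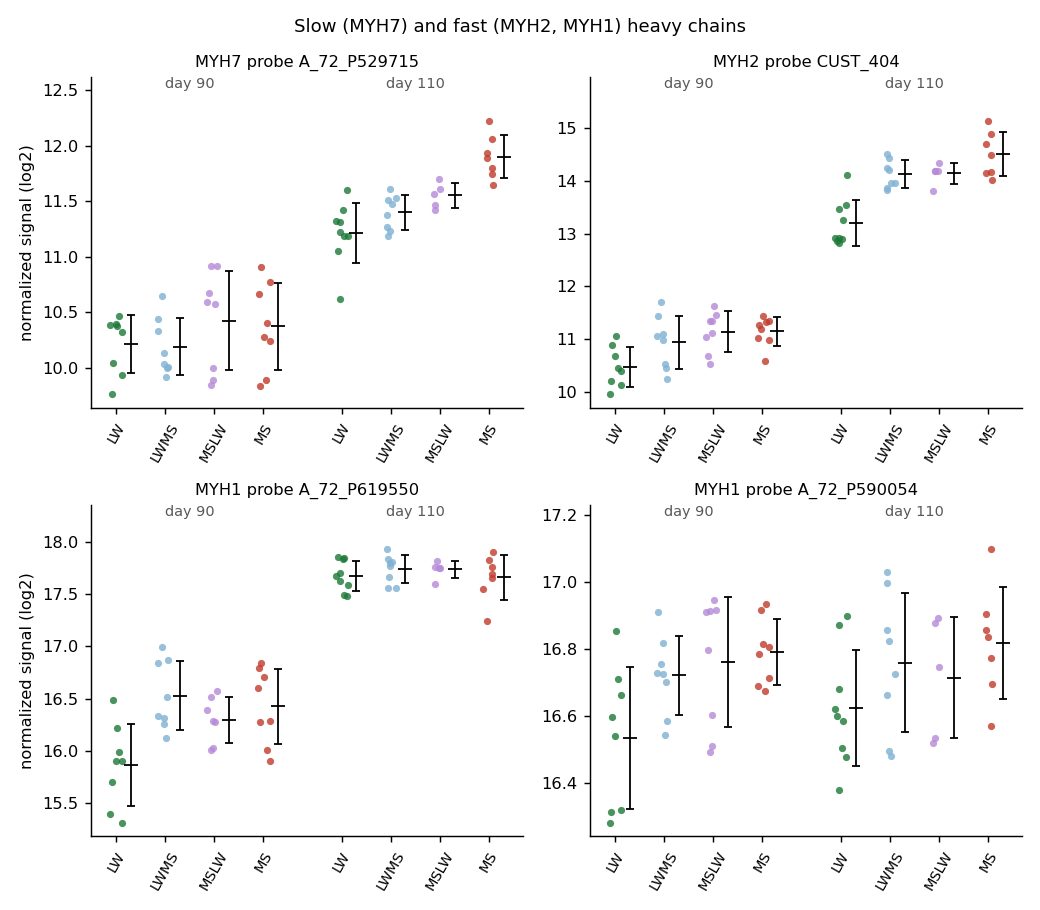
Normalised log2 signal in each fetus (points) for the MYH7 probe A_72_P529715, the MYH2 probe CUST_404 and the MYH1 probes A_72_P619550 and A_72_P590054, by genotype and day, with the group mean ± SD in black. MYH7 and MYH2 rise in all genotypes with MS at the top at day 110, A_72_P619550 rises to overlapping ranges in the 4 genotypes, and A_72_P590054 stays between 16.28 and 17.10 throughout.

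MYH1, the type IIx chain, rose, and with quantile normalisation the breeds differed at day 90 but not past the threshold at day 110. In its main probe, A_72_P619550, LW fetuses were 15.31, 15.90 and 16.48 (lowest, median, highest) at day 90 and 17.48, 17.67 and 17.86 at day 110. MS fetuses were 15.90, 16.44 and 16.84 at day 90 and 17.25, 17.69 and 17.91 at day 110. LWMS fetuses were 16.12, 16.42 and 16.99 and then 17.56, 17.78 and 17.93, and MSLW fetuses 16.01, 16.29 and 16.57 and then 17.60, 17.76 and 17.82. All fetuses of day 110 thus stood above all of day 90, and at day 110 the ranges of the 4 genotypes overlapped. One MSLW array of day 90 had no value for this probe.

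The rise was 3.53-fold in LW (1.82 ± 0.13 SE), 2.36-fold in MS (1.24 ± 0.14 SE), 2.32-fold in LWMS (1.21 ± 0.13 SE) and 2.72-fold in MSLW (1.45 ± 0.15 SE), with adjusted p from 2.13e-18 to 1.15e-11. The MS level was higher by 0.57 ± 0.13 SE at day 90 (adjusted p = 0.000942), and at day 110 the difference was -0.01 ± 0.13 SE (adjusted p = 0.942). Over the 8 probes named MYH1 the day 110 differences ran from -1.04 to 0.39 (median 0.21). None passed the threshold, and 4 had an unadjusted p under 0.05 by limma. With scaling to the 75th percentile, the heavy chain probes higher in MS at day 110, counted above, outnumbered those of MYH2 and MYH7 together. Some were therefore named MYH1 or MYH4. At day 90 the differences of the MYH1 probes ran from 0.23 to 2.11 (median 0.59). Of these probes 5 passed, where 6.23% of all kept probes were higher in MS. In A_72_P619550 the age change differed by -0.58 ± 0.19 SE between the breeds, which missed the threshold (adjusted p = 0.029). The named genes most like this probe were PHYH (r = 0.956), a peroxisomal enzyme, SDHAP3 (0.953), a copy of a succinate dehydrogenase gene, and PFKFB1 (0.952), a regulator of glycolysis. With group means subtracted they were EEF1A2 (0.659), ACR (0.640) and ACSS2 (0.622).

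Of the 8 probes named MYH1, 4 list transcripts of more than 1 heavy chain gene: A_72_P590054 those of MYH1 and MYH2, A_72_P635603 those of MYH1 and MYH4, and A_72_P271099 and A_72_P442365 those of MYH1, MYH2 and MYH4. The MYH2-named A_72_P600848 lists MYH1 as well, so these 5 probes are not specific to 1 gene by the files. Of the 8, 7 rose in LW, 6 rose in MS and in LWMS, and 5 rose in MSLW. In MS and LWMS 1 of the 8 fell, O10690, whose values followed MYH4 and are given there. The probe A_72_P590054 had age changes of 0.09 (LW), 0.03 (MS), 0.04 (LWMS) and -0.05 (MSLW), and none of these values passed the threshold. When each array was scaled to its 75th percentile in place of quantile normalisation, these values were 0.41, 0.80, 0.63 and 0.49, all past the threshold, so its direction in MSLW turned with the scaling. The 5 probes A_72_P619550, A_72_P608642, A_72_P635603, A_72_P599694 and A_72_P442365 varied together within groups (r from 0.62 to 0.98), and they went against MYH3 and MYHC (r from -0.50 to -0.27).

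MYH4, the chain of type IIb fibres, gave the least uniform result. The 10 probes of that name did not all change in the same direction. In LW 8 of the 10 rose and 2 fell, in MS 4 rose and 5 fell, in LWMS 2 rose and 5 fell, and in MSLW 4 rose and 2 fell. These counts go by name. They include A_72_P303294, which lists the transcript of MYH2 and rose in every genotype, and leave out the MYH1-named O10690. Overlapping probes are counted separately. At day 90 MS exceeded LW in 8 of the 10 (differences from 0.49 to 2.17), against 6.23% of all kept probes. At day 110 no probe was higher in MS and 1 was lower, against 13.7% and 15.2% of all. The day 110 counts lie near these shares. Scaling to the 75th percentile raised the count of heavy chain probes higher in MS at day 110, as given above. The age change was lower in MS than in LW for 5 of the 10, against 3.39% of all kept probes. Of these 5, only A_72_P638603 was called with the crosses left out of the fit.

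The 3 overlapping probes printed first, together with A_72_P441939 and the MYH1-named O10690, formed 1 set by their variation within groups. Within groups these 5 correlated from 0.87 to 0.99, and the 3 overlapping ones were 94.7% to 96.6% identical where they align, so they are nearly 1 measurement. In A_72_P687460, LW fetuses of day 90 were 6.72, 8.14 and 8.42 (lowest, median, highest), and those of day 110 were 7.82, 9.71 and 11.09. MS fetuses were 7.51, 10.16 and 12.06 at day 90 and 5.44, 8.58 and 11.06 at day 110. In this probe LW thus rose while MS fell, with wide and overlapping ranges. A_72_P441939 moved less in MS, where its mean went from 13.17 at day 90 to 12.51 at day 110, not past the threshold.

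The age change was 1.52 ± 0.50 SE in LW (adjusted p = 0.00842) and -1.66 ± 0.53 SE in MS (adjusted p = 0.00563), and the difference between them was -3.17 ± 0.73 SE (adjusted p = 0.00221). At day 90 MS stood 4.39-fold above LW (2.13 ± 0.52 SE, adjusted p = 0.00146), on 7 of 8 slides, and at day 110 the difference was -1.04 ± 0.52 SE (adjusted p = 0.106). With the crosses left out of the fit, the 2 age changes, the day 90 difference and the difference of the age changes (adjusted p = 0.0168) all missed the threshold. The spread between fetuses of a group was large, with an SD of 1.06 where the median over all kept probes was 0.27, and only 0.827% of the kept probes had an SD as large.

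Both crosses had a higher mean than LW at day 90 in this probe. LWMS fetuses were 9.75, 10.56 and 11.35 at day 90 and 8.21, 8.86 and 10.21 at day 110, and MSLW fetuses 8.34, 9.57 and 10.93 and then 7.10, 8.18 and 9.01. Every LWMS fetus of day 90 lay above every LW fetus of that age. The LWMS age change was -1.51 ± 0.52 SE at an adjusted p of 0.00955, close to the threshold, and it was lost in 6 of the alternative settings. The MSLW change of -1.40 ± 0.59 SE was not called (adjusted p = 0.0387). From the lowest mean the 8 groups ran LW day 90, MSLW, MS, LWMS and LW of day 110, then MSLW, MS and LWMS of day 90, with overlapping ranges at each step.

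O10690, named MYH1, read the same pattern. Its LW fetuses were 7.60, 8.70 and 9.35 at day 90 and 8.19, 10.53 and 11.58 at day 110, and its MS fetuses 8.54, 10.78 and 12.55 and then 6.33, 9.48 and 11.23. Its age change was 1.52 ± 0.47 SE in LW, -1.63 ± 0.50 SE in MS, -1.65 ± 0.48 SE in LWMS and -1.27 ± 0.55 SE in MSLW, the last not past the threshold. The difference between MS and LW was -3.15 ± 0.69 SE (adjusted p = 0.00116, and 0.0118 with the crosses left out). The set of 5 that it belongs to correlated with the 5 MYH1 probes named above at 0.34 to 0.65. The named genes most like A_72_P687460, chosen for this comparison after its values were seen, reached only r = 0.634 (C1ORF93), 0.620 (FAM213B) and 0.527 (FRZB).

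**Figure D4:**
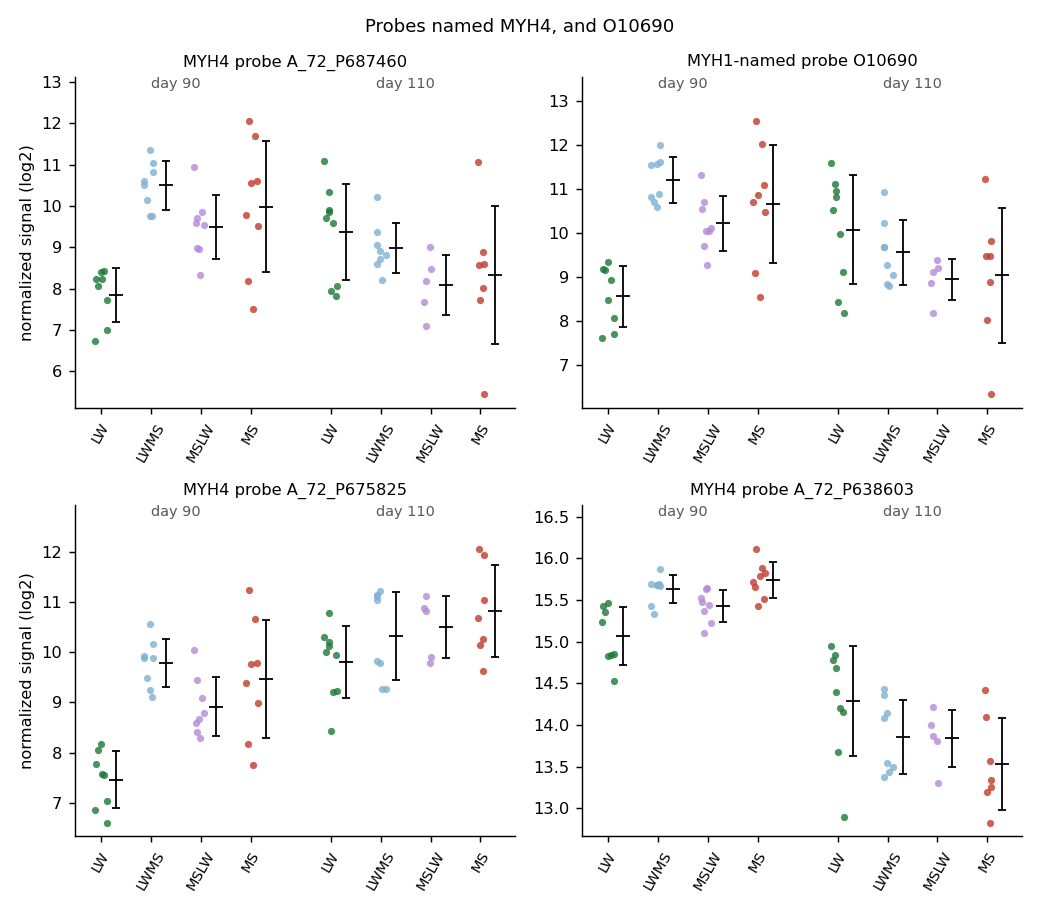
Normalised log2 signal in each fetus (points) for the MYH4 probes A_72_P687460, A_72_P675825 and A_72_P638603 and for O10690, which is named MYH1, by genotype and day, with the group mean ± SD in black. A_72_P687460 and O10690 rise in LW and fall in MS and LWMS, A_72_P675825 is lowest in LW fetuses of day 90 (6.61 to 8.17), and A_72_P638603 falls in every genotype.

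Probe A_72_P675825, from further upstream in the transcript, rose in both breeds. LW fetuses were 6.61, 7.57 and 8.17 at day 90 and 8.43, 9.99 and 10.78 at day 110, and MS fetuses 7.75, 9.57 and 11.24 and then 9.62, 10.69 and 12.05. LWMS fetuses were 9.11, 9.89 and 10.56 and then 9.26, 10.43 and 11.21, and MSLW fetuses 8.29, 8.73 and 10.05 and then 9.78, 10.81 and 11.12. All crosses of day 90 lay above every LW fetus of that age. The age change was 2.35 ± 0.37 SE in LW, 1.35 ± 0.39 SE in MS and 1.58 ± 0.43 SE in MSLW, all past the threshold, and 0.55 ± 0.38 SE in LWMS (adjusted p = 0.213). The MS level was higher by 2.01 ± 0.38 SE at day 90 (adjusted p = 4.99e-05) and by 1.02 ± 0.38 SE at day 110 (adjusted p = 0.0286). The probe with the same letters, O14581, correlated with it at 0.945 within groups, and the pair correlated with the set of 5 at 0.47 to 0.78.

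A pair of MYH4 probes fell in every genotype. In A_72_P638603 LW fetuses were 14.53, 15.05 and 15.47 at day 90 and 12.89, 14.39 and 14.94 at day 110, and MS fetuses 15.43, 15.75 and 16.11 and then 12.83, 13.34 and 14.42. LWMS fetuses were 15.33, 15.68 and 15.88 and then 13.37, 13.82 and 14.44, and MSLW fetuses 15.11, 15.46 and 15.65 and then 13.31, 13.87 and 14.21. Ages were apart in MS and in both crosses and overlapped in LW. The fall was -0.78 ± 0.19 SE in LW, -2.21 ± 0.21 SE in MS, -1.77 ± 0.20 SE in LWMS and -1.59 ± 0.23 SE in MSLW, and the breeds differed in it by -1.43 ± 0.28 SE (adjusted p = 0.000402). At day 110 MS was lower by -0.76 ± 0.20 SE (adjusted p = 0.00192), on 5 of 6 slides. Probe A_72_P574514 fell by 1.25 in LW and 1.87 in MS, and in the crosses it fell by 1.49 (LWMS) and 1.66 (MSLW), all past the threshold. The pair correlated at only 0.37 within groups.

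The brightest probe named MYH4 lists another gene. A_72_P303294 carries the name MYH4 but lists the transcript of MYH2, it was identical to the MYH2 probe A_72_P440201 in 57 of 57 aligned bases, and the pair correlated at 0.951 within groups. It rose by 1.84 in LW and 1.66 in MS, and by 1.80 and 1.69 in the LWMS and MSLW crosses, and A_72_P440201 by 1.80, 1.78, 1.91 and 1.78 in the same order. At day 90 LW fetuses ran from 15.66 to 16.10 and MS fetuses from 15.89 to 16.53, and at day 110 from 17.42 to 17.91 and from 17.79 to 18.12. Named genes much like it included UBE2B (r = 0.975) and GOT1 (0.975), and with group means subtracted IDH2 (0.546), LYSMD2 (0.530) and ACSL1 (0.522). Probe A_72_P070086 rose by 1.85, 1.09, 0.91 and 1.32 in LW, MS, LWMS and MSLW, all past the threshold.

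**Figure D5:**
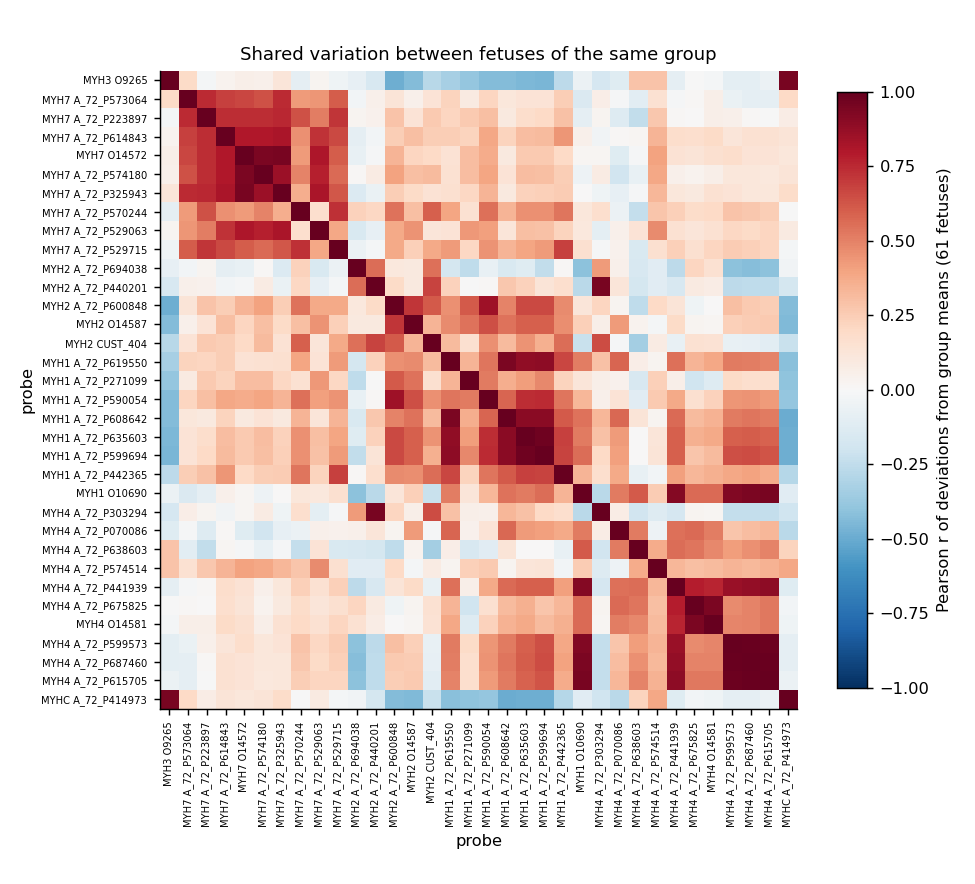
Pearson correlation, over the 61 fetuses, of each pair of heavy chain probes after each group's mean was subtracted; both axes list the probes and the colour runs from -1 (blue) to 1 (red). Blocks of high correlation join 5 MYH1 probes (0.62 to 0.98), and the MYH4 set of A_72_P599573, A_72_P687460, A_72_P615705 and A_72_P441939 with the MYH1-named O10690 (0.87 to 0.99), while MYH3 and MYHC are joined only to each other (0.947). The 9 MYH7 probes are joined less evenly (0.17 to 0.95, median 0.70).

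Some probes that align with each other had unlike values. The MYH1 probe A_72_P619550 and A_72_P638603, 78.0% identical where they align, had age changes of opposite sign and deviations that correlated at 0.06. The same MYH1 probe and A_72_P441939 correlated at 0.55. Both MYH4 probes also overlap, as the last letters of A_72_P638603 are the first of A_72_P441939, and they too had unlike values. In LW the mean of A_72_P638603 went from 15.07 to 14.29 and that of A_72_P441939 from 11.14 to 12.85. In the other genotypes the means of both were lower at day 110, and their deviations correlated at 0.56. Whether a probe also binds the transcript of a neighbouring heavy chain gene was not tested.

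The reciprocal crosses, which exchange the breeds of sow and boar (so that these male fetuses also differ in the origin of the X and Y chromosomes and of the mitochondria), did not differ past the threshold in any of the 33 probes. At day 90 limma called none and 13 had an unadjusted p under 0.05, where 0.5% of all kept probes were called, and at day 110 limma called none and none had such a p, where 0.912% of all were called. The nearest was the MYH7 probe A_72_P614843 at day 90, 0.29 ± 0.08 SE higher in MSLW (adjusted p = 0.097). The mean of the crosses did not leave the mean of the breeds past the threshold in any probe at day 90 (limma called none, 13 with an unadjusted p under 0.05, 0.0495% of all kept probes called) or at day 110 (none, 4 with such a p, 0.0778% of all). At day 90 the crosses stood above the mid-parent by 1.08 in A_72_P687460 and by 0.89 in A_72_P675825, neither past the threshold. A maternal term by age was called in 2 of the 33, MYH3 and A_72_P638603 (-0.83 ± 0.21 SE, adjusted p = 0.00716, and past the threshold no longer in 7 of the alternative settings), against 3.05% of all kept probes, and a paternal term by age in 1, MYH3, against 0.462%. These shares of the 33 rest on 1 or 2 probes.

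Among other myosin heavy chains, 5 of 9 had a kept probe. In MS 3 of the 5 fell with age and none rose, and the same counts held in LW. Of all kept probes, 28.1% fell in MS and 23.5% in LW. Beside MYHC, the nonmuscle chains MYH10 (-0.36 in LW and -0.75 in MS) and MYH9 (-0.40 and -0.55) fell. At day 110 MYH10 was also lower in MS fetuses than in LW (-0.65 ± 0.09 SE, adjusted p = 1.21e-07). The age change of the smooth muscle chain MYH11 was lower in MS than in LW ( -1.74 ± 0.46 SE, adjusted p = 0.00773), but it was well above background on only 39 arrays. MYH6, MYH13, MYH14 and MYH15 had no probe by name.

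Of 14 partners of the heavy chain in the thick filament, 11 were measured. In MS 6 rose and 1 fell with age, where 28.6% of all kept probes rose and 28.1% fell. In LW 5 rose and 1 fell, where 21.8% of all rose and 23.5% fell. The medians were 0.30 in MS and 0.18 in LW, where that of all kept probes was 0.03 in both. MYBPH, a myosin binding protein, rose by 2.09 in LW and 2.64 in MS, and MYBPC2, the fast binding protein C, by 1.14 and 2.05, the latter well above background on 51 arrays. MYOM2, a protein of the M band that links thick filaments, rose by 0.96 in MS and changed by 0.18 in LW, a difference of 0.78 ± 0.21 SE (adjusted p = 0.00839). The light chain MYL6B went the other way, with a rise of 1.06 in LW and 0.58 in MS (difference -0.48 ± 0.12 SE, adjusted p = 0.00395).

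Of 12 regulators of fibre type, 11 were measured. In LW 3 rose and 2 fell, where 21.8% of all kept probes rose and 23.5% fell. In MS 2 rose and 4 fell, where 28.6% of all rose and 28.1% fell, so the counts lie near these shares. The medians were -0.07 in LW and 0.06 in MS, where that of all kept probes was 0.03 in both. PROX1, a transcription factor of slow muscle, fell by 0.98 in MS (-0.18 in LW, adjusted p = 0.202), and the breeds differed by -0.80 ± 0.17 SE (adjusted p = 0.000927). THRA, a thyroid hormone receptor, fell by 0.60 in MS (-0.07 in LW, adjusted p = 0.561), with a difference of -0.53 ± 0.14 SE (adjusted p = 0.00576). PPARGC1A, a coactivator of oxidative metabolism, rose by 1.29 in LW and 0.75 in MS, and MEF2C, a muscle transcription factor, fell by 1.17 and 0.88. For neither of the last pair did the difference between the breeds pass (adjusted p = 0.0145 and 0.32).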

How the data were processed

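Longissimus RNA of 61 fetuses was hybridised to 1-colour porcine 60K arrays, and per the labels the authors extracted spot intensity with Agilent Feature Extraction 10.10.1.1. The deposited scanner files hold background-corrected intensity, used here. The authors also deposited a table of 44368 rows of normalised log2 values, used as an alternative; its rows were matched to spots by their running number, and each array correlated with its median signal at 0.998 or more. Over 60306 spots that are not controls, non-uniform spots (median 16 per array, at most 802) were set missing, arrays were quantile normalised (log2) and spots of a probe averaged. A probe was kept if well above background on 80% of the arrays of a group or more. Groups were compared with limma 3.58.1 in R 4.3.3, two-sided, with Benjamini-Hochberg adjustment over all 42436 kept probes and a threshold of 1% (Bonferroni for the F test). All 8 groups shared 1 estimate of the spread; the sow is not in the labels. Parental terms came from a model with age and the breeds of dam and sire. The procedure was tested on simulated data. Members, lists and tests were chosen with earlier results of these data known.

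The main probe of a gene was the kept probe on the study's gene list, or else the brightest. The other probes named were chosen after their values were seen. For genes outside the 6, the 3 most correlated named genes were given (1 of them is not reported here), and from each list up to 4 genes. Marker lists other than those in the report gave, with age in LW and MS, these counts: endothelium 1 of 4 higher and 3 lower in both, smooth muscle 2 of 4 higher in both, cardiac muscle 2 of 4 higher and 1 lower in LW and 3 higher and 1 lower in MS, adipocyte 0 of 4 lower in LW and 2 in MS, red blood cell 1 of 3 lower in both, and satellite cell 0 of 2 in LW and 1 of 2 higher in MS. Of all kept probes, 21.8% rose and 23.5% fell with age in LW, and 28.6% rose and 28.1% fell in MS. Precision is limited by the number of arrays. Alternatives covered the signal column, background correction, scaling, filter, marked spots, moderation, slide and fetuses left out.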

Additional observations from a re-analysis of the deposited data

Results flagged for a closer look

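For the 14 probes named most often, 112 groups of fetuses were examined for a value far from the rest, a check that chance alone trips in about 1 in 20 groups, and 4 values stood out. The MYH7 probe A_72_P573064 was 17.31 in LW day 90 replicate 8, where the nearest fetus of that group was 17.56. The MYH2 probe A_72_P694038 was 16.95 in MSLW day 90 replicate 8 (nearest 17.19). The MYH1 probe A_72_P619550 was 17.60 in MSLW day 110 replicate 3 (nearest 17.76). The MYH4 probe A_72_P303294 was 16.81 in LWMS day 90 replicate 6 (nearest 16.29).

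MS and LW fetuses differed in their age change, by the test of the difference itself, in 5 of these probes: by -2.27 in MYH3 (O9265), by -1.93 in MYHC (A_72_P414973), by -3.15 in O10690, by -3.17 in MYH4 A_72_P687460 and by -1.43 in MYH4 A_72_P638603. LW and MS differ in sign in O10690 and A_72_P687460 and in size in the other probes.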

How the results depend on the processing

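Counts of heavy chain probes past the threshold stayed within 1.5 times the value given in 221 recomputed counts and left that range in 8. With each array scaled to its 75th percentile, MS and LW differed at day 110 in 19 probes (18 higher) in place of 12. With LW and MS fetuses only, the age change differed between the breeds in 2 probes, MYH3 and A_72_P638603, in place of 7. The maternal term by age was called in 1 probe with no filter on dim probes and in 5 with slide as a block, in place of 2, and with a fetus left out in 1 to 4: 1 without MSLW day 110 replicates 2, 3 or 5, and 4 without MS day 90 replicate 3, the array with the fewest spots well above background. Without each left-out fetus the other counts ran from 30 to 32 (age, LW), 30 to 31 (MS), 28 to 29 (LWMS), 23 to 26 (MSLW), 16 to 17 (breeds, day 90), 12 to 13 (day 110), with 7 in every case for the difference of age changes. Leaving out MS day 90 replicate 3, or LW day 90 replicate 8 with the most non-uniform spots, was chosen after seeing the data. Of the single values of the probes named, 2923 stayed on the same side of the threshold, 33 lost the threshold and 25 gained it. A further 1 changed direction and was past the threshold in 1 of the 2 settings: A_72_P590054 in MSLW, 0.49 with scaling to the 75th percentile. Changes of direction between values that both missed the threshold were not counted apart and lie among the 2923. A_72_P694038 lost its rise in LW without LW day 90 replicate 8 (0.17). A_72_P687460 lost its LWMS fall without MSLW day 110 replicates 2, 4 or 5 and without LW day 90 replicate 8 (-1.51 each), and its LW rise and LWMS fall with no filter and with no moderation. The cause of these changes was not tested. The replicate numbers were given in accession order and pair no fetuses; fetuses were blocked by slide only.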
